A study of Mus musculus with 18 samples.

Results

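Lysosome genes were followed here through mouse embryonic fibroblasts that received a miR-29b expression vector and were then exposed, or not, to TGF-β. The members were all genes of the deposited expression matrix whose KEGG annotation names the lysosome pathway, with Ctsw and Hyal1 left out, which gave 122 of 55450 genes. The study asked how a vector with a collagen promoter and a vector with a constitutive promoter change gene expression in fibroblasts under a fibrotic stimulus. The cells came from ATCC and were transfected transiently with Lipofectamine. Sequencing was paired-end on polyadenylated RNA from a strand-specific kit.

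There were 6 groups of 3 libraries. Cells received the empty pcDNA3 plasmid, a Col1a1-miR-29b vector or a CMV-miR-29b vector, and each of these was studied without TGF-β and with TGF-β for 24 h, begun 6 h after transfection. In the miR-29b vectors a rat Col1a1 promoter or a CMV promoter drives a human miR-29b-1 insert together with EGFP, and an SV40 promoter drives the red marker mRFP1. The empty plasmid lacks EGFP, mRFP1 and the insert, so the empty-vector comparisons cover the fluorescent proteins and the insert together, and for Col1a1-miR-29b also the Col1a1 promoter. The plasmids were given in equal molar amounts, hence with more DNA mass for the larger Col1a1-miR-29b plasmid. Libraries are named by the letters c, d and e of the sample titles. In each of the 2 Col1a1-miR-29b groups, 1 library comes from a column whose letter no title holds, and it is called the unlettered library. Library totals ran from 65898017 to 80332633 counts, with a median of 74155860. The study states that the experiment was done 3 times for every group, and the labels do not say which libraries belong to the same time. The p-values measure the spread between the libraries of a group.

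Lysosomes break down proteins, glycans, lipids and nucleic acids with acid hydrolases. A proton pump keeps their lumen acid, and membrane proteins protect the limiting membrane and export the products. Most hydrolases are tagged with mannose 6-phosphate in the Golgi, bound by receptors and carried by clathrin and adaptor complexes towards endosomes, and in fibroblasts this route also serves collagen that is taken up and degraded.

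Of the 122 members, 112 passed the filter on low counts and were tested among 21161 genes. The other 10 were Ap1m2, Arsg, Atp6v0d2, Ctse, Ctsg, Ctsj, Ctsm, Dnase2b, Laptm5 and Psapl1. Atp6v0d2, a pump subunit known from osteoclasts, had 0 counts in all 18 libraries, as had Ctsg, Ctsj, Ctsm and Dnase2b. Psapl1 reached 17 counts and Ctse reached 8 counts in their highest library. By role, the members were 16 proteases, 17 enzymes of glycan breakdown, 8 sulfatases or sulfatase-related genes, 10 lipases, nucleases and phosphatases, and 3 activator proteins. There were also 10 proton pump subunits, 25 membrane proteins and transporters (the soluble Npc2 was placed with these), and 31 genes of sorting and delivery. The 2 others, Ctsj and Ctsm, are cathepsins too and were not counted among the 16 proteases.

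Most lysosome genes were expressed in these cells, and their levels were not set against those of other genes. FPKM, the deposited level per transcript length and library size, was used to compare genes and was read in 16 libraries. The mean FPKM was at least 1 for 98 members, at least 10 for 67 members and at least 100 for 6 members, with a median of 12.1. Lamp1, the most abundant glycoprotein of the limiting membrane, had a mean of 306 FPKM. Psap, the precursor of the saposins that present lipids to their hydrolases, had 295 FPKM. These 2 were followed by the aspartic protease Ctsd at 180.0 FPKM, the membrane protein Laptm4a at 174 FPKM and the clathrin light chain Clta at 117 FPKM. The 5 genes together held 34.6% of the summed FPKM of all members.

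Within each role the levels were uneven. Among the proteases, the cysteine cathepsins Ctsb and Ctsl stood at 71.9 and 67.3 FPKM, while Ctsk, the collagen-degrading cathepsin of osteoclasts, stood at 0.0803 FPKM. The enzymes of glycan breakdown had a median of 15.0 FPKM, and Hexa, which degrades the ganglioside GM2, had 41.0 FPKM. Proton pump subunits ranged up to 72.7 FPKM for Atp6v0d1, and the a3 subunit Tcirg1 had 21.6 FPKM. In the group of membrane proteins and transporters, Lamp2 had 53.3 FPKM, Cd63 had 64.3 FPKM and the calcium channel Mcoln1 had 12.4 FPKM. Of the cholesterol export proteins in this group, Npc1 had 8.13 FPKM and the soluble Npc2 had 65.5 FPKM. Of the delivery genes, the mannose 6-phosphate receptors M6pr and Igf2r had 23.6 and 6.95 FPKM, and Gnptab, which encodes the enzyme that starts the tag, had 5.96 FPKM.

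**Figure D1:**
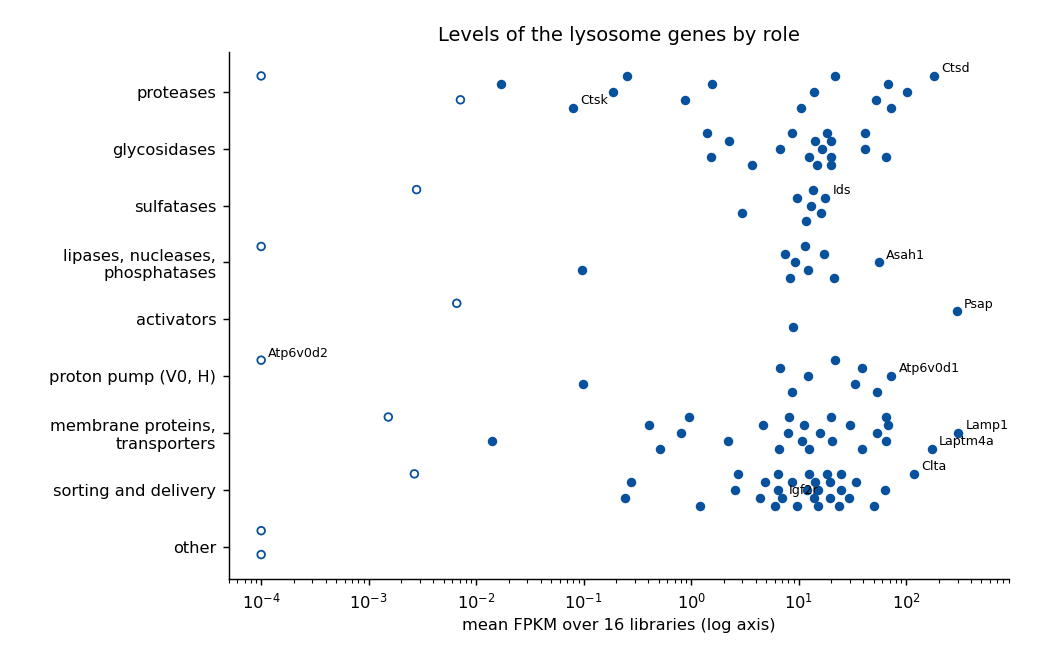
Mean FPKM over 16 libraries (horizontal, log axis) of each of the 122 lysosome genes, grouped by role (vertical; offsets within a role only separate points). Filled points are the 112 genes tested and open points are the 10 that did not pass the filter. Lamp1 and Psap lie highest, near 306 and 295 FPKM.

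The share of all counts that fell on lysosome genes stayed within a narrow band. It ran from 1.22% in treated empty-vector library e to 1.34% in Col1a1-miR-29b library d. The mean was 1.29% in empty-vector cells and 1.24% with TGF-β. It was 1.32% and 1.32% for the Col1a1-miR-29b vector, and 1.29% and 1.27% for the CMV-miR-29b vector, without and with TGF-β. All 6 Col1a1-miR-29b libraries lay above all 6 empty-vector libraries. They were not apart from CMV-miR-29b, whose untreated library d (1.315%) lay above Col1a1-miR-29b c (1.310%) and treated Col1a1-miR-29b d (1.305%).

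Fibroblast markers were checked beside this. Of 10 markers, 6 had a mean FPKM of at least 1, with Col1a1 highest at 197 FPKM, whereas Lum had 0 counts in every library and Thy1 had 0.0032 FPKM. Summed CPM of the 10 markers, counts scaled to library size, was empty-vector 4496, 4079 and 4093, treated empty-vector 7320.1, 6648 and 7644, Col1a1-miR-29b 3511, 3502 and 3127, treated Col1a1-miR-29b 5047, 5179.8 and 5086, CMV-miR-29b 4072, 3997 and 3527, treated CMV-miR-29b 5596, 6209 and 5760.4. Each vector's treated libraries thus exceeded its untreated ones, and the Col1a1-miR-29b libraries lay below the empty-vector libraries with the same treatment. Of 8 tested, 4 rose and 1 fell with TGF-β in empty-vector cells (edgeR, adjusted p under 0.05). With Col1a1-miR-29b 5 rose and 1 fell, and with CMV-miR-29b 4 rose and 0 fell. Against the empty vector, Col1a1-miR-29b had 0 higher and 2 lower without TGF-β, and 0 and 6 with it. The study reports that TGF-β raised collagen expression and that its miRNA vectors reduced this rise. The sum holds the collagen gene Col1a1, so it cannot be read as fibroblast content. The part of these markers in the lysosome results was not tested. Of 10 macrophage markers, 2 reached 1 FPKM, led by Cd14 at 3.98 FPKM, with Tyrobp and C1qa at 0. Their mean summed CPM was 12.5 without and 14.2 with TGF-β for the empty vector, 13.5 and 15.2 for Col1a1-miR-29b, and 11.2 and 13.2 for CMV-miR-29b. The treated and untreated libraries were apart for this sum with the empty vector and CMV-miR-29b and overlapped with Col1a1-miR-29b. Of 5 epithelial markers, 1 reached 1 FPKM (Krt19, 28.0 FPKM). Their mean summed CPM was 74.7 without and 46.6 with TGF-β for the empty vector, 63.8 and 37.7 for Col1a1-miR-29b, and 78.9 and 44.6 for CMV-miR-29b. The 5 endothelial markers stayed under 1 FPKM, with Cdh5 highest at 0.244 FPKM and Emcn at 0. In the same order their mean summed CPM was 1.20 and 2.65, 1.43 and 2.33, and 1.64 and 2.66. The part of these differences in the lysosome results was not tested either. A bulk library cannot tell fewer cells of a kind from less RNA per cell.

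The mature strand of miR-29b is given with its seed, bases 2 to 8, in capitals (RefSeq, GRCm38.p6).
mmu-miR-29b-3p: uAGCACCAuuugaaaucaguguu

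The count table has an entry for its precursor gene, Mir29b-1. It had 0 counts in the 6 empty-vector libraries. Without TGF-β it had 0, 1 and 1 counts in Col1a1-miR-29b libraries and 110, 115 and 309 counts in CMV-miR-29b libraries. With TGF-β it had 4, 2 and 6 counts and 214, 203 and 293 counts. The CMV libraries were therefore all higher than the Col1a1 libraries, and these reads come from long polyadenylated transcripts, which are not a measure of the mature miRNA.

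TGF-β was compared with no treatment within each vector. In empty-vector cells, 4 of the 112 members tested rose, where 3.88% of all genes did, and 6 fell, where 2.01% did (edgeR, adjusted p under 0.05). The share of members that rose was 3.57% and the share that fell was 5.36%, so the rise was near the background and the fall was above it. The median log2 change was -0.03 over the members and 0.00 over all genes. Cltb, Sort1 and Ap3b2 of the delivery route, the activator Gm2a, the sulfamidase Sgsh and the acid α-glucosidase Gaa fell. Cd63, Scarb2, Gusb and Gga3 rose.

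Cltb encodes clathrin light chain B, a part of the coat that forms vesicles at the Golgi and the plasma membrane (ENSMUSG00000047547, chr13:54592401-54611344). Its CPM was 84.0, 80.5 and 85.1 in empty-vector libraries c, d and e, and 62.0, 66.7 and 59.9 with TGF-β (log2 fold change -0.40, standard error 0.05, edgeR adjusted p = 7.23e-05). All 3 treated libraries lay below all 3 untreated ones. The call held whichever of the 6 libraries was left out, with an edgeR adjusted p of at most 0.000691.

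Sort1 encodes sortilin, a receptor that carries several hydrolases and activators from the Golgi (ENSMUSG00000068747, chr3:108284082-108361511). It had 42.3, 44.9 and 39.1 CPM without and 29.9, 34.4 and 32.7 CPM with TGF-β (log2 fold change -0.38, standard error 0.06, edgeR adjusted p = 0.00138). Again the groups did not overlap. Gm2a encodes the protein that lifts the ganglioside GM2 out of membranes for its breakdown. It had 43.1, 44.4 and 47.7 CPM without and 30.9, 37.2 and 29.5 CPM with TGF-β (log2 fold change -0.47, standard error 0.08, edgeR adjusted p = 0.00242), and every treated library was lower than every untreated one. Gaa, which degrades lysosomal glycogen, had 258, 239.6 and 229 CPM and 208, 205 and 209 CPM (log2 fold change -0.23, standard error 0.05, edgeR adjusted p = 0.0105). The 3 treated values were nearly equal and lay under the lowest untreated value. These 3 calls held whichever library was left out, and each was lost when only the 6 libraries compared were fitted (edgeR adjusted p = 0.0684, 0.0644 and 0.0745).

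Ap3b2 encodes the β subunit of the AP-3 adaptor that is best known from neurons. It was scarce, at 0.274 FPKM, and had 3.07, 2.75 and 2.94 CPM without and 1.29, 1.03 and 1.62 CPM with TGF-β (log2 fold change -1.15, standard error 0.24, edgeR adjusted p = 0.00709). The 3 untreated values were the highest of the 18 libraries. Sgsh, which removes sulfate from heparan sulfate, had 15.0, 15.8 and 17.9 CPM and 12.7, 13.7 and 9.95 CPM (log2 fold change -0.42, standard error 0.11, edgeR adjusted p = 0.0287). Its call was lost without empty-vector d (0.0578) and e (0.13) and treated empty-vector c (0.0561) and e (0.115), the adjusted p in brackets.

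Among the members that rose, Scarb2, a membrane protein that also serves as a delivery receptor, had 129, 138 and 128 CPM without and 149, 146 and 153 CPM with TGF-β (log2 fold change 0.18, standard error 0.04, edgeR adjusted p = 0.00877). The groups did not overlap, and the call was lost without empty-vector c (0.0642) and e (0.0779) and treated empty-vector e (0.086). Cd63, a tetraspanin of late endosomes and lysosomes, had 251, 222 and 242 CPM and 287, 257 and 283 CPM (log2 fold change 0.21, standard error 0.06, edgeR adjusted p = 0.0353). Every treated library was above every untreated one, by a small margin. Gusb, the β-glucuronidase, had 53.7, 52.3 and 58.8 CPM and 60.8, 68.5 and 62.2 CPM (log2 fold change 0.22, standard error 0.06, edgeR adjusted p = 0.0484). The edgeR call of Cd63 was lost without empty-vector d (0.192) and e (0.0921) and treated empty-vector c (0.154) and e (0.187), and that of Gusb without empty-vector c (0.175) and d (0.22) and treated empty-vector c (0.0568), d (0.203) and e (0.11).

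In the same comparison the proteases, the proton pump subunits and the lipases, nucleases and phosphatases had 0 calls in edgeR. The count for all members was 5 lower and 0 higher without treated library e, 5 lower and 1 higher without treated library c, and 12 lower and 2 higher without treated library d. Over all genes these fits gave 480 and 245, 572 and 330, and 868 and 560, the higher first. Scaling by total counts gave 2 higher and 8 lower among members, against 672 higher and 593 lower among all genes, where the scaling used here gave 820 and 425. Fitting only the 6 libraries compared gave 1 higher and 2 lower members (Gga3, Cltb and Ap3b2), and 423 and 195 genes. A member of a role with no call was therefore not shown to be unchanged.

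In Col1a1-miR-29b cells, 3 members rose with TGF-β, where 3% of all genes did, and 3 fell, where 1.32% did. The median log2 change was -0.01 over members and -0.01 over all genes, so the 2 medians were alike. Cltb had 91.1, 94.9 and 91.2 CPM without and 77.1, 76.6 and 74.5 CPM with TGF-β (log2 fold change -0.28, standard error 0.05, edgeR adjusted p = 0.00301). Sort1 had 40.9, 38.3 and 39.0 CPM and 32.6, 32.0 and 31.0 CPM (log2 fold change -0.31, standard error 0.06, edgeR adjusted p = 0.00907). All treated libraries were lower for these 2 genes, and Sort1 lost its edgeR call without the unlettered treated library (adjusted p = 0.051). Ap3m2, a μ subunit of AP-3 known from neurons, also fell (log2 fold change -0.18, standard error 0.05, edgeR adjusted p = 0.0494), and its call was lost whichever library was left out (adjusted p up to 0.231).

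Cd63 rose from 255, 264 and 236 CPM to 294, 295 and 292 CPM in these cells (log2 fold change 0.22, standard error 0.06, edgeR adjusted p = 0.0317). The protease Ctsl rose from 447, 479 and 499.7 CPM to 539, 531 and 591 CPM (log2 fold change 0.22, standard error 0.06, edgeR adjusted p = 0.0439). The treated libraries of each gene were above the untreated ones. The edgeR call of Cd63 was lost without Col1a1-miR-29b c (0.0939) and unlettered (0.19) and treated Col1a1-miR-29b c (0.088), d (0.0922) and unlettered (0.0825), and that of Ctsl without Col1a1-miR-29b c (0.225) and d (0.0948) and treated Col1a1-miR-29b c (0.0693), d (0.0515) and unlettered (0.203). Laptm4b, a membrane protein of late endosomes, rose by the largest amount among the members called (log2 fold change 0.68, standard error 0.18, edgeR adjusted p = 0.0433). Its untreated values were 41.0, 47.3 and 86.7 CPM and its treated values were 93.5, 90.7 and 97.1 CPM. Libraries c and d of the untreated group were low, and the unlettered one stood near the 83.3 to 97.1 CPM of the other 15 libraries. The call was lost without Col1a1-miR-29b c (0.171) and d (0.178) and treated Col1a1-miR-29b c (0.108), d (0.088) and unlettered (0.133). Without the 2 unlettered libraries its log2 change was 1.05. Leaving out untreated library c or d gave 1 higher and 2 lower members each, and leaving out treated library c or d gave 0 and 2. Without untreated library c the higher 1 was Gga3, not called with all libraries (edgeR adjusted p = 3.37e-05). Leaving out the unlettered untreated library gave 2 and 2, and the unlettered treated library 0 and 1. Over all genes leaving out untreated c, d and unlettered gave 449 and 181, 493 and 186, and 425 and 207, and leaving out the treated ones 494 and 175, 469 and 182, and 475 and 190, where all libraries gave 634 and 280. Scaling by total counts gave 0 higher and 4 lower members, beside 537 and 357 genes. Fitting only the groups compared kept Cltb and Sort1 alone, beside 523 and 196 genes.

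In CMV-miR-29b cells, 4 members rose with TGF-β, where 3.08% of all genes did, and 6 fell, where 1.87% did. As in the empty-vector cells, the share that fell, 5.36%, exceeded that of all genes, and the medians were -0.02 and 0.00. Cltb had 81.5, 90.9 and 83.9 CPM without and 69.5, 66.8 and 66.2 CPM with TGF-β (log2 fold change -0.34, standard error 0.05, edgeR adjusted p = 0.000485). Sort1 had 42.7, 42.4 and 42.6 CPM and 34.8, 35.7 and 32.6 CPM (log2 fold change -0.31, standard error 0.06, edgeR adjusted p = 0.00829). Gaa had 243, 261 and 227 CPM and 195, 196 and 205 CPM (log2 fold change -0.29, standard error 0.05, edgeR adjusted p = 0.00158). In these 3 genes no treated library reached the untreated ones, and no left-out library ended a call. With the settings used here Cltb and Sort1 fell, and Cd63 rose, in each of the 3 TGF-β comparisons, which have no library in common. In Col1a1-miR-29b cells Cltb and Sort1 lost their calls with the replicate block (edgeR adjusted p = 0.0678 and 0.132). Cd63 lost its call there with the block as well, and Sort1 and Cd63 lost theirs without the 2 unlettered libraries. Keeping genes with at least 1 count ended the call of Cd63 with each of the 3 vectors. Cd63 lost its call under total-count scaling in empty-vector and Col1a1-miR-29b cells (0.0716 and 0.0506, edgeR adjusted p), and with the length and GC offsets (0.0593 and 0.144). Fitting only the groups compared ended that of Cd63 with each of the 3 vectors, and those of Sort1 and Gaa in empty-vector and CMV-miR-29b cells (in the latter edgeR adjusted p = 0.0522 and 0.0518). In CMV-miR-29b cells it kept Cltb, Gga3 and Ap1s2 alone, beside 361 higher and 166 lower genes.

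Cd63 rose from 249, 232 and 253 CPM to 278, 284 and 295 CPM (log2 fold change 0.22, standard error 0.06, edgeR adjusted p = 0.0269), with no overlap. Slc11a1, a metal transporter known from macrophages, rose from 1.26, 1.62 and 1.72 CPM to 2.44, 2.92 and 2.63 CPM (log2 fold change 0.80, standard error 0.18, edgeR adjusted p = 0.0139). These levels are low, 0.516 FPKM on average, and the call was lost without CMV-miR-29b c (0.0813) and treated CMV-miR-29b d (0.0696). Ap1s2, a small subunit of the AP-1 adaptor, rose (log2 fold change 0.35, standard error 0.08, edgeR adjusted p = 0.0183), and Gusb rose (log2 fold change 0.22, standard error 0.06, edgeR adjusted p = 0.0481). The asparaginyl protease Lgmn fell (log2 fold change -0.22, standard error 0.06, edgeR adjusted p = 0.0376), as did Ctsa, which protects β-galactosidase and neuraminidase (log2 fold change -0.21, standard error 0.06, edgeR adjusted p = 0.0496). In all 4 genes the treated and untreated libraries were apart.

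Most of these smaller changes in CMV-miR-29b cells lost their calls when single libraries were left out. The edgeR call of Ap1s2 was lost without CMV-miR-29b c (0.0934) and treated CMV-miR-29b c (0.0743) and e (0.0741). That of Lgmn was lost without CMV-miR-29b c (0.129) and d (0.097) and treated CMV-miR-29b d (0.164) and e (0.0652), and that of Ctsa without CMV-miR-29b c (0.18) and e (0.102) and treated CMV-miR-29b c (0.261) and d (0.0712). That of Cd63 was lost without CMV-miR-29b c (0.0595), d (0.135) and e (0.0502) and treated CMV-miR-29b d (0.0835) and e (0.117), and that of Gusb whichever library was left out (adjusted p up to 0.184). Without untreated library c, 0 members were higher and 4 lower, and without treated library d 2 were higher and 4 lower. Over all genes these 2 fits gave 502 and 244, and 456 and 268, in place of 652 higher and 395 lower. DESeq2 called 8 higher and 13 lower members beside 867 and 629 genes. The length and GC offsets, tried after the values were known, gave 6 higher and 12 lower members beside 652 and 562 genes.

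**Figure D2:**
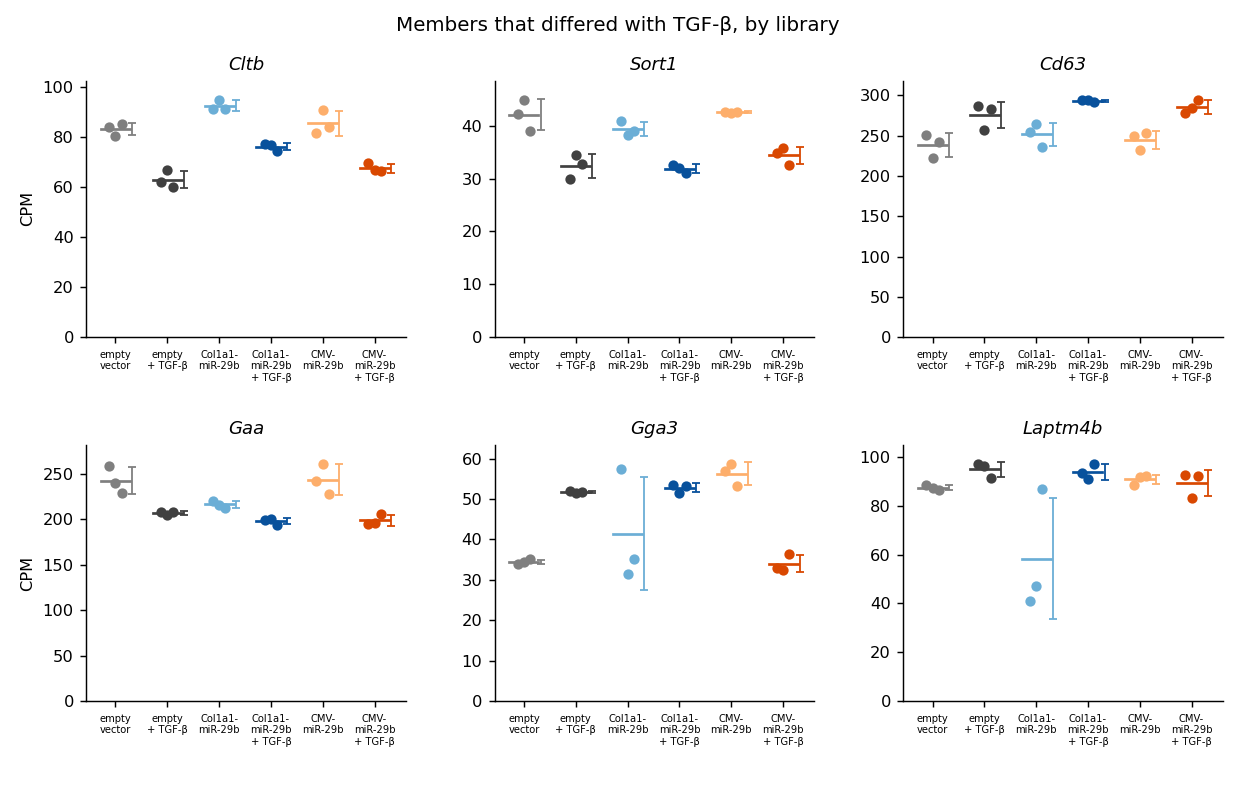
CPM (vertical, from 0) of 6 lysosome genes in each of the 18 libraries, by group (horizontal). Points are libraries, horizontal lines are group means and error bars are 1 SD over 3 libraries. Cltb and Sort1 are lower and Cd63 is higher in treated cells of each vector, whereas Gga3 and Laptm4b fall into separate levels.

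Gga3 encodes an adaptor that loads mannose 6-phosphate receptors into vesicles at the Golgi (ENSMUSG00000020740, chr11:115584255-115604051). It had 34.0, 34.4 and 35.1 CPM in empty-vector cells and 51.9, 51.5 and 51.8 CPM with TGF-β (log2 fold change 0.59, standard error 0.15, edgeR adjusted p = 0.028). In CMV-miR-29b cells it had 56.8, 58.7 and 53.3 CPM and, with TGF-β, 33.1, 32.5 and 36.5 CPM (log2 fold change -0.73, standard error 0.15, edgeR adjusted p = 0.00803). It had 57.5, 31.5 and 35.3 CPM and 53.6, 51.5 and 53.3 CPM in Col1a1-miR-29b cells, without and with TGF-β. The gene was thus higher with TGF-β in every empty-vector library and lower with TGF-β in every CMV-miR-29b library.

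The values of Gga3 lay at 2 levels. There were 8 libraries between 31.5 and 36.5 CPM and 10 between 51.5 and 58.7 CPM, with none between. The libraries of 5 groups stayed together, and untreated Col1a1-miR-29b library c stood with the higher level while d and the unlettered library stood with the lower one. The rise in empty-vector cells was lost whichever of the 6 libraries was left out (edgeR adjusted p up to 0.0971), and the fall in CMV-miR-29b cells was not (at most 0.0401). Gga3 overlaps Mrps7 on the opposite strand by 127 bases. How strand was used in the counting is not stated, so reads of the overlap cannot be assigned with certainty.

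The difference between the responses to TGF-β was tested directly. No gene passed in edgeR for either miR-29b vector against the empty vector, 0% of all genes and 0 members. At an unadjusted p under 0.05 there were 7 members for the Col1a1-miR-29b vector (6.25% of members beside 4.54% of all genes) and 7 for the CMV-miR-29b vector (6.25% of members beside 5.34% of all genes). DESeq2 called 0 and 2 members, the 2 being Gga3 and Slc11a1. Over all genes it called 14 higher and 13 lower for the Col1a1-miR-29b difference, and 9 and 10 for the CMV-miR-29b difference. For Gga3 the CMV-miR-29b response differed from the empty-vector response by -1.31 on the log2 scale (standard error 0.21, edgeR adjusted p = 0.113, DESeq2 adjusted p = 1.08e-05). For Laptm4b, edgeR called the Col1a1-miR-29b difference only without the unlettered libraries (log2 difference 0.94, adjusted p = 0.000933) or without the untreated 1 of these (0.00016), and with the replicate block (0.00954). Members past the threshold with 1 vector and not with another are accordingly not shown to respond differently.

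Laptm4b and Gga3 were not alone in having separate levels. Looking after the values were seen, among members with a mean of at least 10 CPM, Tpp1, a tripeptidyl peptidase, had 13 libraries between 49.6 and 57.5 CPM and 5 between 83.3 and 98.1 CPM. The 5 were treated empty-vector e, untreated Col1a1-miR-29b unlettered, treated Col1a1-miR-29b d and unlettered, and treated CMV-miR-29b c. This split crossed the groups, and edgeR called Tpp1 in 0 of the 9 comparisons between 2 groups (unadjusted p under 0.05 in 0, DESeq2 count 0). The sialic acid exporter Slc17a5 likewise had 4 libraries between 15.3 and 20.0 CPM and 14 between 27.0 and 34.2 CPM.

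The Col1a1-miR-29b vector was then compared with the empty vector. Without TGF-β, 8 members were higher, where 2.57% of all genes were, and 3 were lower, where 3.7% were. The share of members that were higher was 7.14% and the share that were lower 2.68%. The medians were 0.04 over members and 0.02 over all genes. Without Col1a1-miR-29b library d they were 0.005 and -0.005, and with the length and GC offsets 0.012 and 0.006. With TGF-β, 19 members were higher, where 5.31% of all genes were, and 4 were lower, where 7.63% were. Here the shares were 17.0% and 3.57%, and the medians 0.07 and 0.02. With this scaling and all 18 libraries in 1 fit, most genes called were lower with the vector and most lysosome genes called were higher. Both directions depended on the method. Fitting only the 6 libraries compared gave 2 higher and 3 lower members in untreated cells, beside 318 and 464 genes, and 1 and 4 members in treated cells, beside 315 and 757 genes. This fit kept Ctns, Smpd1, Igf2r, Ap3b1 and Cltc in untreated cells, and Cltb, Igf2r, Ap3b1 and Cltc in treated cells. The replicate block gave 1 and 1 members beside 63 and 98 genes, and 4 and 4 members beside 387 and 765 genes. The treated median was 0.03 over members and 0.01 over all genes with the block, 0.03 over members and 0.00 over all genes without the 2 unlettered libraries, and 0.10 over members and 0.06 over all genes with total-count scaling. Scaling by total counts gave 679 higher and 643 lower genes in untreated cells, in place of 543 and 784, and 1469 and 1323 in treated cells, in place of 1123 and 1615. On the same genes, limma on log2(FPKM + 1) gave 305 and 176 in untreated cells and 1004 and 748 in treated cells, with 3 and 1, and 16 and 3, among members.

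The 4 lower members all belong to sorting and delivery. The cation-independent mannose 6-phosphate receptor Igf2r carries tagged hydrolases from the Golgi and the cell surface (ENSMUSG00000023830, chr17:12682406-12769664). In treated cells it had 74.3, 72.6 and 76.3 CPM with the empty vector and 60.5, 58.9 and 53.4 CPM with the Col1a1-miR-29b vector (log2 fold change -0.37, standard error 0.06, edgeR adjusted p = 0.00172). In untreated cells it had 79.8, 78.8 and 76.7 CPM and 69.3, 65.0 and 64.1 CPM (log2 fold change -0.25, standard error 0.06, edgeR adjusted p = 0.0295). All 6 Col1a1-miR-29b libraries lay below all 6 empty-vector libraries. Airn overlaps Igf2r on the opposite strand by 28354 bases, at a mean of 2.75 CPM, and how its reads were counted is not stated.

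Ap3b1 is the broadly expressed β subunit of AP-3, which sends membrane proteins to lysosomes (ENSMUSG00000021686, chr13:94358960-94566317). It had 163, 161 and 165 CPM in treated empty-vector cells and 139, 126 and 121 CPM in treated Col1a1-miR-29b cells (log2 fold change -0.34, standard error 0.05, edgeR adjusted p = 0.000673). Without TGF-β it had 156, 154 and 152 CPM and 139.9, 134 and 132 CPM (log2 fold change -0.19, standard error 0.05, edgeR adjusted p = 0.0295). At either treatment no Col1a1-miR-29b library reached the empty-vector values. Cltc, the clathrin heavy chain, had 673, 621 and 724 CPM with the empty vector and 515, 561 and 551 CPM with Col1a1-miR-29b with TGF-β (log2 fold change -0.31, standard error 0.06, edgeR adjusted p = 0.00313). Without TGF-β it had 629, 639 and 602 CPM and 556, 498 and 526 CPM (log2 fold change -0.24, standard error 0.06, edgeR adjusted p = 0.0237). These groups were apart as well. In treated cells no left-out library ended the edgeR calls of Igf2r, Ap3b1 and Cltc (adjusted p at most 0.0142, 0.00586 and 0.0255). In untreated cells each was lost without empty-vector c or d or Col1a1-miR-29b d or the unlettered library, with adjusted p up to 0.0956, 0.0966 and 0.0848. Ap1g1, the γ subunit of AP-1, was lower in treated cells (log2 fold change -0.17, standard error 0.05, edgeR adjusted p = 0.0353) and lost its call without treated Col1a1-miR-29b c (0.176) and unlettered (0.0725) and treated empty-vector c (0.056) and e (0.176).

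Not all delivery genes were lower. Cltb had 62.0, 66.7 and 59.9 CPM in treated empty-vector cells and 77.1, 76.6 and 74.5 CPM in treated Col1a1-miR-29b cells (log2 fold change 0.28, standard error 0.05, edgeR adjusted p = 0.00268), and it was called in 15 of 15 alternatives. The treated Col1a1-miR-29b values lay between the untreated and the treated empty-vector values. This comparison shares its treated empty-vector libraries with the TGF-β comparison in which Cltb fell. Ap1s1, a small subunit of AP-1, was higher (log2 fold change 0.24, standard error 0.07, edgeR adjusted p = 0.0294), and its call was lost without treated Col1a1-miR-29b c (0.0616) and d (0.121) and treated empty-vector d (0.0547) and e (0.127). The remaining 24 delivery genes tested in treated cells did not pass.

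**Figure D3:**
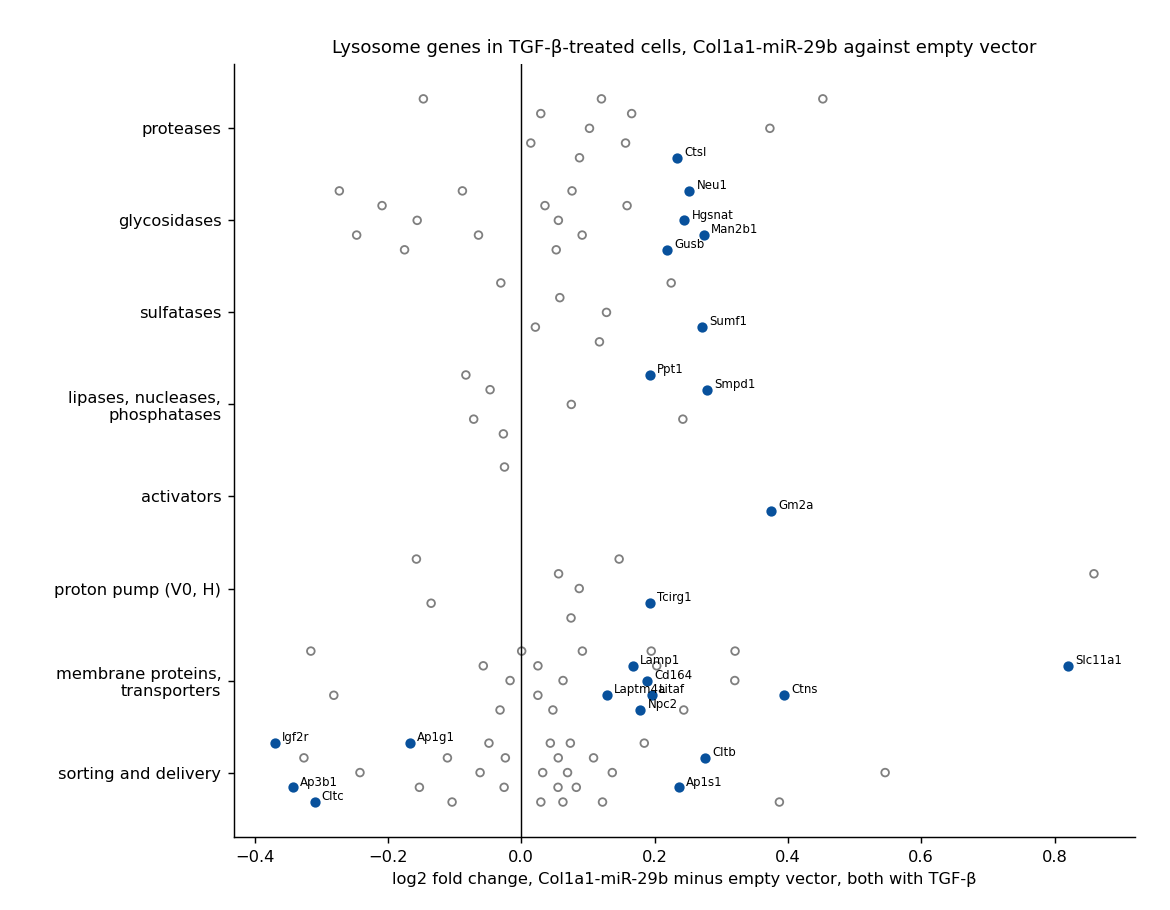
Log2 fold change (horizontal) between Col1a1-miR-29b and empty-vector cells, each with TGF-β, for the 106 tested lysosome genes with a mean of at least 1 CPM, by role (vertical; offsets within a role only separate points, and Hgsnat is drawn with the glycosidases). Filled points passed edgeR at an adjusted p under 0.05 and open points did not. The 4 lower calls are delivery genes, and Slc11a1 lies farthest to the right of the calls at 0.82.

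The largest group of higher members was that of membrane proteins and transporters, with 7 higher and 0 lower of 24 tested in treated cells, where 5.31% of all genes were higher, and 4 higher and 0 lower in untreated cells, where 2.57% were. With only the groups compared in the fit, 0 were higher and 1 lower, Npc1, in treated cells, and 1 was higher, Ctns, in untreated cells. The soluble Npc2 was counted in this role and was among the higher members at either treatment with all 18 libraries. Ctns, which exports cystine, had 49.2, 60.4 and 50.5 CPM in treated empty-vector cells and 70.6, 67.3 and 72.6 CPM in treated Col1a1-miR-29b cells (log2 fold change 0.39, standard error 0.08, edgeR adjusted p = 0.00387). Without TGF-β it had 54.2, 59.1 and 59.6 CPM and 68.8, 71.6 and 73.6 CPM (log2 fold change 0.31, standard error 0.08, edgeR adjusted p = 0.028). Every Col1a1-miR-29b library was above every empty-vector library of the same treatment. The treated call held whichever library was left out (edgeR adjusted p at most 0.0267) and was lost with only the groups compared (0.054), and the untreated call was lost whichever was left out (up to 0.128).

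Lamp1, the most abundant member (ENSMUSG00000031447, chr8:13159161-13175338), had 824, 909.8 and 825 CPM with the empty vector and 954, 965 and 955 CPM with Col1a1-miR-29b in treated cells (log2 fold change 0.17, standard error 0.04, edgeR adjusted p = 0.0121). In untreated cells it had 887, 915 and 934 CPM and 1016, 1017 and 1007 CPM (log2 fold change 0.15, standard error 0.04, edgeR adjusted p = 0.0358). The difference was small, and the Col1a1-miR-29b libraries were all higher. Lamp1 overlaps Grtp1 on the opposite strand by 3317 bases. Npc2, which hands cholesterol to Npc1, had 412, 393 and 382 CPM with the empty vector and 445, 461 and 438 CPM with Col1a1-miR-29b with TGF-β (log2 fold change 0.18, standard error 0.04, edgeR adjusted p = 0.0101) and was higher without it as well (log2 fold change 0.15, standard error 0.04, edgeR adjusted p = 0.038). The sialomucin Cd164 was higher without TGF-β (log2 fold change 0.19, standard error 0.05, edgeR adjusted p = 0.0251). In treated cells the edgeR call of Lamp1 was lost without treated empty-vector c (0.0827) and e (0.0638), and that of Npc2 without treated Col1a1-miR-29b d (0.0555) and treated empty-vector e (0.059). In untreated cells these 2 calls were lost whichever library was left out (up to 0.176 and 0.189), and that of Cd164 without Col1a1-miR-29b d (0.108) and unlettered (0.101) and empty-vector c (0.128) and e (0.0821).

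Slc11a1 had 1.36, 1.94 and 1.77 CPM in treated empty-vector cells and 2.98, 3.40 and 2.59 CPM in treated Col1a1-miR-29b cells (log2 fold change 0.82, standard error 0.18, edgeR adjusted p = 0.00704). Each Col1a1-miR-29b value was above each empty-vector value, and no left-out library ended the call, which was lost with only the groups compared (edgeR adjusted p = 0.0652). Without TGF-β it had 2.35, 1.91 and 2.16 CPM and 2.38, 1.97 and 1.89 CPM, which overlapped (log2 fold change -0.04, standard error 0.18, edgeR adjusted p = 0.933).

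Among the hydrolases and their helpers, Smpd1, the acid sphingomyelinase, had 55.9, 64.7 and 55.1 CPM with the empty vector and 73.2, 68.1 and 71.6 CPM with Col1a1-miR-29b in treated cells (log2 fold change 0.28, standard error 0.06, edgeR adjusted p = 0.00962). In untreated cells it had 60.4, 61.8 and 63.0 CPM and 71.7, 75.4 and 73.5 CPM (log2 fold change 0.25, standard error 0.06, edgeR adjusted p = 0.0295). The Col1a1-miR-29b libraries were the higher ones in each case. The treated call was lost without treated Col1a1-miR-29b c (0.0503) and treated empty-vector c (0.0572) and e (0.0552), and the untreated one whichever library was left out (edgeR adjusted p up to 0.137). Gusb was higher without TGF-β (log2 fold change 0.26, standard error 0.06, edgeR adjusted p = 0.0235) and with it (log2 fold change 0.22, standard error 0.06, edgeR adjusted p = 0.0271). Its untreated call was lost without Col1a1-miR-29b c (0.0555), d (0.127) and unlettered (0.0567) and empty-vector c (0.0959) and d (0.111), and its treated call without treated Col1a1-miR-29b c (0.117) and unlettered (0.115) and treated empty-vector c (0.137) and e (0.103).

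Gm2a had 30.9, 37.2 and 29.5 CPM in treated empty-vector cells and 40.9, 41.4 and 44.3 CPM in treated Col1a1-miR-29b cells (log2 fold change 0.37, standard error 0.08, edgeR adjusted p = 0.00892). The groups were apart. The treated empty-vector libraries are also those in which Gm2a fell with TGF-β, and the call was lost without treated empty-vector c (0.0511) and e (0.0528). Among the glycan enzymes, the α-mannosidase Man2b1 (log2 fold change 0.27, standard error 0.08, edgeR adjusted p = 0.044), the sialidase Neu1 (log2 fold change 0.25, standard error 0.06, edgeR adjusted p = 0.0182) and the acetyltransferase Hgsnat (log2 fold change 0.24, standard error 0.06, edgeR adjusted p = 0.0157) were higher in treated cells. So was Sumf1, which activates sulfatases (log2 fold change 0.27, standard error 0.07, edgeR adjusted p = 0.0157). The libraries were apart in all 4. The edgeR call of Man2b1 was lost without treated Col1a1-miR-29b c (0.109), d (0.0698) and unlettered (0.149) and treated empty-vector c (0.206) and e (0.17). That of Neu1 was lost without treated Col1a1-miR-29b unlettered (0.096) and treated empty-vector c (0.0945) and e (0.0874), that of Hgsnat without treated Col1a1-miR-29b d (0.0536) and unlettered (0.0539) and treated empty-vector c (0.0661) and e (0.0824), and that of Sumf1 without treated Col1a1-miR-29b c (0.0592) and d (0.0542) and treated empty-vector c (0.0871) and e (0.0746). Ctsl was the 1 protease called (log2 fold change 0.23, standard error 0.06, edgeR adjusted p = 0.016), and its call was lost without treated Col1a1-miR-29b unlettered (0.0843) and treated empty-vector d (0.0602).

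Tcirg1, the a3 subunit that places the pump on lysosomes, had 113, 109.9 and 113 CPM with the empty vector and 127, 134 and 122 CPM with Col1a1-miR-29b with TGF-β (log2 fold change 0.19, standard error 0.05, edgeR adjusted p = 0.0231). Without TGF-β it had 104, 96.4 and 108 CPM and 117, 115 and 121 CPM (log2 fold change 0.20, standard error 0.05, edgeR adjusted p = 0.0334). At either treatment each Col1a1-miR-29b value was above each empty-vector value. It was the 1 pump subunit of 9 tested that passed. Its edgeR call was lost without treated Col1a1-miR-29b c (0.0652) and d (0.112) and treated empty-vector c (0.0687), d (0.0654) and e (0.0674) in treated cells and without Col1a1-miR-29b c (0.0817), d (0.102) and unlettered (0.12) and empty-vector c (0.0959) and d (0.161) in untreated cells. Laptm4a, Litaf, Ppt1 and Cd164 completed the 19 higher members of treated cells and are named after their values were seen (0.13, 0.20, 0.19 and 0.19 on the log2 scale). Without treated empty-vector library e their edgeR adjusted p was 0.143, 0.092, 0.105 and 0.0507.

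Nagpa, whose enzyme uncovers the mannose 6-phosphate tag, had the largest difference among the members called in untreated cells. It had 3.09, 3.24 and 6.45 CPM with the empty vector and 9.07, 9.30 and 9.37 CPM with the Col1a1-miR-29b vector (log2 fold change 1.12, standard error 0.24, edgeR adjusted p = 0.0136). Empty-vector libraries c and d were the lowest of all 18, whereas e stood among the values of the other groups, and the call was lost without c (0.0652) or d (0.0636).

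**Figure D4:**
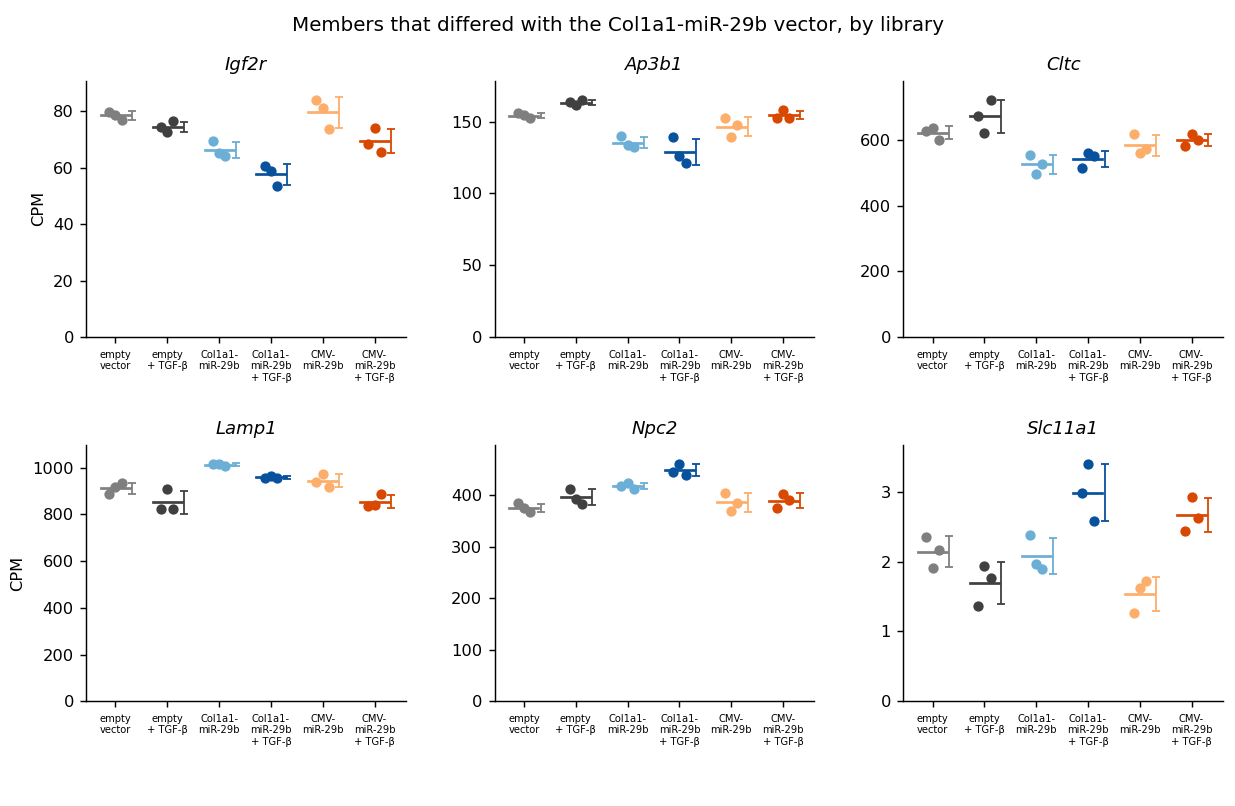
CPM (vertical, from 0) of 6 lysosome genes in each of the 18 libraries, by group (horizontal). Points are libraries, lines are group means and error bars are 1 SD over 3 libraries. Igf2r, Ap3b1 and Cltc are lower and Lamp1 and Npc2 are higher in Col1a1-miR-29b cells than in empty-vector cells, and Slc11a1 is higher in treated Col1a1-miR-29b cells.

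These counts moved with single libraries. In treated cells, with the higher first, leaving out empty-vector library e gave 4 and 3 members beside 493 and 798 genes, library c 7 and 3 members beside 593 and 1073 genes, and library d 15 and 5 members beside 1287 and 1895 genes. Leaving out Col1a1-miR-29b library c gave 10 and 3 members beside 577 and 921 genes, library d 10 and 4 members beside 752 and 1346 genes, and the unlettered one 12 and 3 members beside 651 and 1159 genes. Calls over all genes thus fell as well in 5 of these 6 fits. In untreated cells, leaving out empty-vector c gave 0 members beside 172 and 296 genes, d 1 and 0 members beside 184 and 383 genes, and e 4 and 4 members beside 355 and 688 genes. Leaving out Col1a1-miR-29b c gave 2 and 3 members beside 289 and 534 genes, d 1 and 0 members beside 154 and 328 genes, and the unlettered library 1 and 1 members beside 246 and 394 genes. Without the 2 unlettered libraries, 11 members were called in treated cells, 10 of them among the 23, beside 591 higher and 1068 lower genes. In untreated cells 1 member was called, beside 158 and 239 genes. It was Laptm4b, which was lower (log2 -0.99, edgeR adjusted p = 1.04e-05) and is not among the 11. Scaling by total counts gave 22 higher and 3 lower members in treated cells and 11 and 2 in untreated cells.

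Transcript length differed between the higher and lower members. In treated cells the median transcript length was 2723 bases for the 19 higher members and 6709 bases for the 4 lower ones, beside 3173 bases for all members tested. In untreated cells it was 2705 and 6519 bases. With offsets for length and GC content, a setting picked once the data were known, 16 members were higher and 5 lower in treated cells, beside 1061 and 1130 genes, and 8 higher and 4 lower in untreated cells, beside 567 and 688 genes. Of the 23 treated calls 17 were kept, with Ap1g1, Ap1s1, Gusb, Lamp1, Laptm4a and Tcirg1 lost, and of the 11 untreated calls 8 were kept, with Igf2r, Lamp1 and Npc2 lost. The new calls were lower for Ap1m1 and the glycosidase Fuca1 and higher for Ctsb and Ctsc in treated cells, and lower for Ctsd and Gaa and higher for Ctsc and Scarb2 in untreated cells, so the lower members were then not all delivery genes. Igf2r, Ap3b1 and Cltc kept their treated calls with these offsets, at log2 -0.20, -0.31 and -0.16 (edgeR adjusted p = 0.0203, 0.00155 and 0.0288), where the values without offsets were -0.37, -0.34 and -0.31. For Ap1g1 the values were -0.02 and 0.835. Igf2r lost its other calls, in untreated cells (-0.14, 0.112) and between the miR-29b vectors without TGF-β (0.19, 0.066) and with it (0.17, 0.119).

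The CMV-miR-29b vector was compared with the empty vector in the same way. Without TGF-β, 0 members passed in edgeR, where 0.00473% of all genes did, or 1 gene. At an unadjusted p under 0.05 there were 4 members (3.57% of members beside 5.46% of all genes). DESeq2 called 1 member, Gga3, beside 20 higher and 23 lower genes. With only the groups compared, edgeR called Gga3 as well (log2 fold change 0.70, edgeR adjusted p = 0.0235), beside 9 and 1 genes. Nagpa was called without empty-vector library e (edgeR adjusted p = 0.0344). With TGF-β, 0 members passed, where 0.00945% of all genes did, or 2 genes. There 13 members had an unadjusted p under 0.05 (11.6% of members beside 12.0% of all genes). DESeq2 called 2 members, Gga3 and Slc11a1, beside 144 higher and 130 lower genes. Igf2r, for one, had 84.0, 81.0 and 73.5 CPM without and 68.4, 74.0 and 65.5 CPM with TGF-β (0.02 and -0.10 on the log2 scale, neither of which passed).

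Direct comparison of the 2 miR-29b vectors gave few members. Without TGF-β, 1 member was higher with CMV-miR-29b, where 1% of all genes were, and 1 was lower, where 0.803% were. Igf2r was the higher (log2 fold change 0.27, standard error 0.06, edgeR adjusted p = 0.044) and Ctsc, a dipeptidyl peptidase that activates other proteases, the lower (log2 fold change -0.28, standard error 0.07, edgeR adjusted p = 0.0498). Ctsc had 97.1, 95.9 and 104 CPM with Col1a1-miR-29b and 77.6, 80.8 and 86.7 CPM with CMV-miR-29b, without overlap. The call of Igf2r was lost without CMV-miR-29b c (0.199) and d (0.0768) and Col1a1-miR-29b c (0.0536), d (0.151) and unlettered (0.138), and that of Ctsc whichever library was left out (up to 0.211). Under scaling by total counts 0 members were higher and 2 lower, and 145 genes were higher and 188 lower, in place of 212 and 170. With DESeq2 size factors 1 member was higher and 0 lower, beside 241 and 169 genes. Leaving out Col1a1-miR-29b library c gave 1 higher member, Gga3 (edgeR adjusted p = 0.000211), the unlettered library 1 higher, Laptm4b (1.60e-06), and CMV-miR-29b library e 2 higher, Igf2r and Gaa. Each of the other 3 gave 0 members, and Gga3, Laptm4b and Gaa were not called with all libraries. Over all genes leaving out Col1a1-miR-29b c and unlettered and CMV-miR-29b e gave 117 and 61, 64 and 43, and 167 and 80, the higher first. Leaving out Col1a1-miR-29b d and CMV-miR-29b c and d gave 45 and 39, 27 and 34, and 251 and 177 genes.

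With TGF-β, 2 members were higher with CMV-miR-29b than with Col1a1-miR-29b, where 1.02% of all genes were, and 4 were lower, where 0.912% were. The higher ones were Ap3b1 (log2 fold change 0.26, standard error 0.05, edgeR adjusted p = 0.0152) and Igf2r (log2 fold change 0.27, standard error 0.06, edgeR adjusted p = 0.043). Gga3 (log2 fold change -0.64, standard error 0.15, edgeR adjusted p = 0.0451), Tcirg1 (log2 fold change -0.28, standard error 0.05, edgeR adjusted p = 0.0176), Npc2 (log2 fold change -0.20, standard error 0.04, edgeR adjusted p = 0.0256) and Lamp1 (log2 fold change -0.17, standard error 0.04, edgeR adjusted p = 0.0475) were lower. In each of these 6 genes the libraries of the groups were apart. These comparisons share the Col1a1-miR-29b libraries with those against the empty vector. Over all genes 215 were higher and 193 lower with all libraries. Leaving out treated Col1a1-miR-29b c, d and unlettered gave 27 and 32, 41 and 51, and 22 and 41 genes. Leaving out treated CMV-miR-29b c, d and e gave 76 and 55, 12 and 28, and 79 and 58 genes. Fitting only the groups compared gave 20 and 28 genes. Leaving out any 1 library left 0 or 1 calls of these 6 genes, and fitting only the groups compared left that of Gga3. Igf2r, Gga3, Npc2 and Lamp1 lost theirs whichever library was left out (edgeR adjusted p up to 0.209, 0.184, 0.0964 and 0.201), Ap3b1 without treated CMV-miR-29b d (0.0937) and treated Col1a1-miR-29b d (0.0734) and unlettered (0.061), and Tcirg1 without treated CMV-miR-29b c (0.0678), d (0.061) and e (0.0564) and treated Col1a1-miR-29b c (0.073) and d (0.0761).

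**Figure D5:**
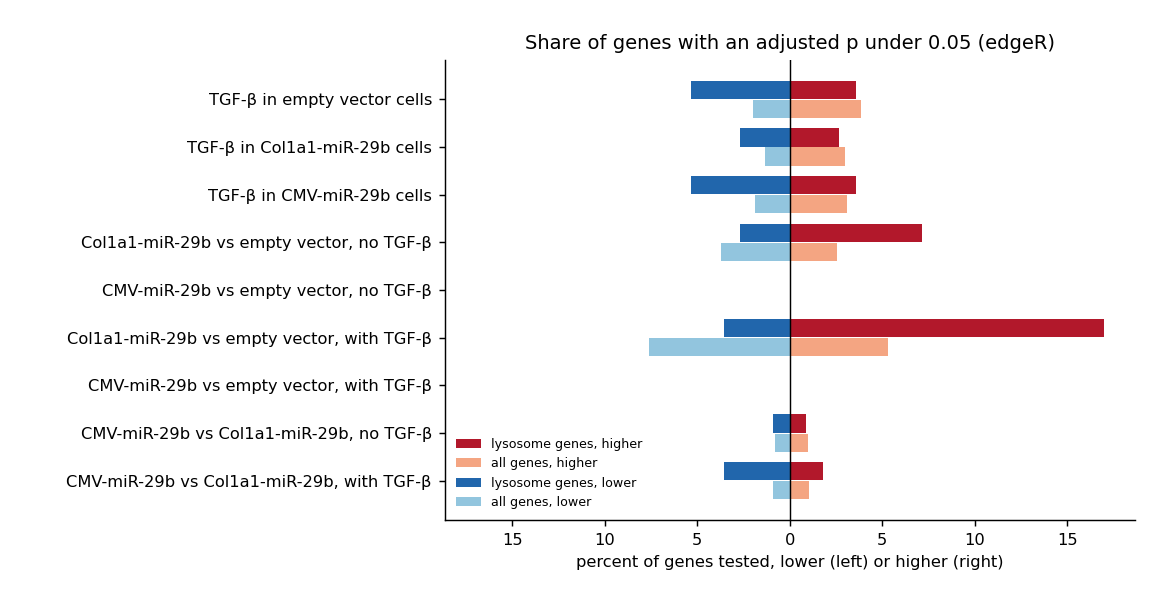
Percent of genes (horizontal) that were lower, to the left, or higher, to the right, at an edgeR adjusted p under 0.05 in each of 9 comparisons (vertical). Dark bars are the 112 lysosome genes tested and light bars all 21161 genes tested. Against the empty vector, with TGF-β, the Col1a1-miR-29b vector had 17.0% of lysosome genes higher beside 5.31% of all genes.

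Several central lysosome genes did not pass in edgeR in any of the 9 comparisons between 2 groups. Lamp2 stayed between 540.4 and 611 CPM over the 18 libraries. Psap stayed between 825 and 962 CPM and Ctsd between 418 and 509 CPM. Their values in the groups overlapped or differed by less than the test required. Ctsb ran from 453 to 519 CPM, with an edgeR adjusted p of 0.0555 between treated Col1a1-miR-29b and empty-vector cells. DESeq2 called Ctsb there (adjusted p = 0.0334) and as lower with TGF-β in empty-vector cells (0.0236), as did edgeR with total-count scaling (0.0183 and 0.028), with at least 10 counts required and with the length and GC offsets. With the offsets Ctsd was lower in untreated Col1a1-miR-29b cells (edgeR adjusted p = 0.0305). In CMV-miR-29b cells edgeR called Ctsd as lower with TGF-β without treated library e (adjusted p = 0.0335). Ctsb was called as lower in that comparison with the offsets (edgeR adjusted p = 0.0363) and without untreated library e (0.0395). Hexa ran from 83.1 to 100.1 CPM. Mcoln1, M6pr, Gnptab, Npc1 and Clta were not called in edgeR either. Their lowest and highest values were 96.5 and 113, 102 and 118, 34.0 and 48.1, 74.1 and 120.1 and 216 and 263 CPM. M6pr was called as lower with TGF-β in CMV-miR-29b cells by DESeq2 (adjusted p = 0.0443) and by edgeR with the offsets (0.0305) or at least 10 counts required (0.0467), and in empty-vector cells with total-count scaling (0.0416). Npc1 was called as lower in treated Col1a1-miR-29b cells when only the groups compared were fitted (edgeR adjusted p = 0.0359). Ctsk was scarce, with at most 0.472 CPM, and was not called. Ctsf, scarce as well, ran from 0.521 to 1.63 CPM. In edgeR it was not called, while DESeq2 (log2 0.99, adjusted p = 0.0316) and edgeR with the offsets (0.0494) called it as higher with TGF-β in CMV-miR-29b cells.

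Promoters of lysosome genes often carry the letters CACGTG, or the longer TCACGTGA, which is known as the element bound by TFEB and its relatives. The letters were searched in windows from 250 bases before to 50 bases after the start (RefSeq, GRCm38.p6). Each motif reads the same on the other strand, and the longer contains the shorter. Of the 122 members, 97 matched an entry, with 115 windows. CACGTG stood in 21.7% of these windows and in 7.15% of all 32851, and TCACGTGA stood in 9.57% and 0.974%. The windows of Igf2r, Cd164, Sumf1 and Ctsa, members that were called in a comparison, hold the longer motif, and that of Lamp1 holds CACGTG 4 times. The called members Gaa, Sgsh, Ctsl, Ap1s2, Lgmn and Nagpa hold only the shorter motif. Stretches of 30 bases follow for the first 5 genes, with the motif in capitals.
Igf2r (chr17:12769737-12769766, strand -): gaacgaggacgTCACGTGAgcaggaggcgg
Igf2r (chr17:12769696-12769725, strand -): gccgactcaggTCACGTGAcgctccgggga
Cd164 (chr10:41519401-41519430, strand +): cgccgggctgcTCACGTGAccggcgcgcgc
Sumf1 (chr6:108185577-108185606, strand -): agcaccacaggTCACGTGAtctccatgggt
Ctsa (chr2:164833749-164833778, strand +): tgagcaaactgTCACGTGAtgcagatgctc
Lamp1 (chr8:13159088-13159117, strand +): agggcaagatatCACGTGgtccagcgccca

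Members with the longer motif went in either direction. Igf2r was lower and Cd164 and Sumf1 were higher in treated Col1a1-miR-29b cells. In that comparison the median log2 change was 0.12 over the 10 tested members with TCACGTGA and 0.09 over the 79 with a promoter entry and without it. With TGF-β in empty-vector cells these medians were -0.06 and -0.02, with 0 calls among the 10. A match is a description of the letters and says nothing of binding.

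A site that pairs with bases 2 to 8 of miR-29b-3p, TGGTGCT, was searched in the 3′UTRs of GENCODE M21 (GRCm38). It was found in 11 of the 122 members, 9.02%, and in 13.1% of 21045 genes. The 11 were Ap1g1, Ap3s2, Ap4e1, Ctsc, Ctsf, Ctsk, Ctsl, Ctsm, Hexa, Psapl1 and Sort1, so 5 of them are cathepsins, with Ctsm and Psapl1 untested. The sites of the members that were called in a comparison are given with the pairing letters in capitals.
Ap1g1 (chr8:109860886-109860915, strand +): catgaaggataTGGTGCTctatttgtaata
Ap1g1 (chr8:109862977-109863006, strand +): ccacaatgcttTGGTGCTgttaccttgaga
Ctsc (chr7:88289278-88289307, strand +): tagaaggaagaTGGTGCTgtggaggccaca
Ctsc (chr7:88291216-88291245, strand +): ttccagtacacTGGTGCTtagggtcgtttg
Ctsl (chr13:64360880-64360909, strand -): gtaggcagacaTGGTGCTggagaaaaagct
Ctsl (chr13:64359372-64359401, strand -): ataatcagatcTGGTGCTcttttctggcct
Sort1 (chr3:108357655-108357684, strand +): caccgcataccTGGTGCTgtccctgggctc

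Beside the vectors, members with a site had slightly lower medians. Between CMV-miR-29b and empty-vector cells the median log2 change of the 9 tested members with a site was -0.07 without TGF-β and -0.06 with it, beside 0.02 and 0.03 for the 103 without a site. Between Col1a1-miR-29b and empty-vector cells these medians were -0.03 and -0.02, beside 0.05 and 0.07. No test was made of these small differences. Of the members with a site, Ap1g1 was lower and Ctsl was higher in treated Col1a1-miR-29b cells. Sort1 had -0.10, 0.02, -0.02 and 0.09 on the log2 scale for the Col1a1 and CMV vectors without and for both with TGF-β, and was not called.

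Other genes of lysosome function, outside the pathway annotation, were read beside the members. Their calls are given for the edgeR fit of all 18 libraries only, and no left-out library or other setting was read for them. Of 15 subunits of the V1 part of the pump, 12 were tested. Atp6v1g1 was the 1 that rose with TGF-β in empty-vector, Col1a1-miR-29b and CMV-miR-29b cells (0.38 ± 0.04, adjusted p = 1.20e-05; 0.31 ± 0.04, adjusted p = 0.000103; 0.34 ± 0.04, adjusted p = 4.29e-05, edgeR, log2 ± standard error). In treated Col1a1-miR-29b cells Atp6v1d and Atp6v1e1 were higher than with the empty vector (0.17 and 0.15 on the log2 scale). Tcirg1 of the membrane part was higher in the same comparison, so 3 pump subunits of 21 tested over the 2 parts were higher there, where 5.31% of all genes were.

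The transcription factors that drive lysosome genes were tested for 4 of 5. Mitf was lower in treated Col1a1-miR-29b cells than in treated empty-vector cells (log2 fold change -1.78, standard error 0.48, edgeR adjusted p = 0.0248). Its standard error was large beside the median of 0.067 over the lysosome genes tested. Tfeb and Tfe3, at 1.39 and 8.30 FPKM, were not called in the 9 comparisons between 2 groups. Of 19 genes of mTORC1 and its lysosomal anchor, 18 were tested. Against the empty vector 1 was higher and 3 were lower in treated Col1a1-miR-29b cells, where 5.31% and 7.63% of all genes were. In treated Col1a1-miR-29b cells Lamtor5 of the anchor was higher (log2 fold change 0.33, standard error 0.04, edgeR adjusted p = 0.000582), and Rptor of the kinase complex (log2 fold change -0.23, standard error 0.06, edgeR adjusted p = 0.0172) and the folliculin partners Fnip1 (log2 fold change -0.29, standard error 0.06, edgeR adjusted p = 0.00502) and Fnip2 (log2 fold change -0.27, standard error 0.07, edgeR adjusted p = 0.0177) were lower. Rptor was lower without TGF-β as well (log2 fold change -0.22, standard error 0.06, edgeR adjusted p = 0.037). Between the miR-29b vectors, Rptor was higher with CMV-miR-29b in untreated cells (log2 fold change 0.25, standard error 0.06, edgeR adjusted p = 0.0463) and Lamtor5 lower in treated cells (log2 fold change -0.22, standard error 0.04, edgeR adjusted p = 0.0256).

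All 16 autophagy genes were tested. In treated Col1a1-miR-29b cells 3 were higher and 1 was lower than with the empty vector, where 5.31% and 7.63% of all genes were. The cargo receptor Sqstm1 rose with TGF-β in empty-vector cells (log2 fold change 0.33, standard error 0.06, edgeR adjusted p = 0.00175) and in Col1a1-miR-29b cells (log2 fold change 0.30, standard error 0.06, edgeR adjusted p = 0.0047). In treated Col1a1-miR-29b cells the kinase Ulk1 (log2 fold change 0.36, standard error 0.08, edgeR adjusted p = 0.00604) and the membrane tags Map1lc3b (log2 fold change 0.25, standard error 0.07, edgeR adjusted p = 0.0336) and Gabarapl2 (log2 fold change 0.25, standard error 0.06, edgeR adjusted p = 0.0145) were higher than with the empty vector, and Wipi1 was lower (log2 fold change -0.17, standard error 0.05, edgeR adjusted p = 0.0231). Wipi1 rose with TGF-β in empty-vector cells (log2 fold change 0.17, standard error 0.05, edgeR adjusted p = 0.04), and Wipi2 was higher in untreated Col1a1-miR-29b cells (log2 fold change 0.16, standard error 0.04, edgeR adjusted p = 0.0474). The 4 protease inhibitors of the list all passed the filter. Cstb, an inhibitor of cysteine cathepsins in the cytosol, exceeded its empty-vector level with the Col1a1-miR-29b vector in untreated cells (log2 fold change 0.22, standard error 0.05, edgeR adjusted p = 0.0116) and in treated cells (log2 fold change 0.27, standard error 0.05, edgeR adjusted p = 0.00176). It was lower with CMV-miR-29b than with Col1a1-miR-29b without TGF-β (log2 fold change -0.21, standard error 0.05, edgeR adjusted p = 0.0358) and with it (log2 fold change -0.25, standard error 0.05, edgeR adjusted p = 0.0176). The secreted inhibitor Cst3 was higher in treated Col1a1-miR-29b cells (log2 fold change 0.22, standard error 0.07, edgeR adjusted p = 0.0471).

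Several limits bear on these lysosome genes. Each group had 3 libraries, and which of them were prepared together is not stated. Of the 122 members, 65 overlap another gene, and strand use in counting is not stated, so their counts are less certain. The empty vector lacked the fluorescent proteins, which were not separated from miR-29b here. Most changes were small, and 43 of 59 named ones lost their call without at least 1 library. RNA levels say nothing of lysosome number, enzyme activity, acidity or protein delivery. The cells were a transfected population, and transfected and untransfected cells were not told apart.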

How the data were processed

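Whole-cell RNA of 18 libraries was measured, 3 in each of 6 groups. The authors trimmed reads with cutadapt, checked them with FastQC, mapped them with HISAT2 and assembled them with StringTie. The authors deposited counts per gene. How these were taken from the assemblies, and with which strand setting, is not stated. The study names normalized count data as the input of its tests, and here the deposited counts were tested as they stood. Some scarce members took few values, and Ctse had 4 or 8 in each of its 6 libraries with a count. A count may therefore not equal 1 read. The deposited FPKM values were used for 16 libraries, and 0.0001 there stands for 0. The 2 FPKM columns of the unlettered libraries were not used here. The series notes name mm9 and the study's methods an Ensembl mouse genome that is GRCm38, and 52506 of 55450 genes have coordinates identical to GENCODE M21 on GRCm38.

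Counts were filtered (filterByExpr, 21161 genes tested), scaled by TMM and tested with edgeR 4.0.16 (quasi-likelihood, 1 mean per group over all 18 libraries, Benjamini-Hochberg over all genes tested, threshold 0.05) in R 4.3.3. CPM are counts scaled to the TMM-adjusted library total. Standard errors come from the fold change and its F statistic. The code was tested on simulated data, and the limit for passing was lowered after the first run. The members and the gene lists were chosen with earlier results of these data known.

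Named genes are, in each of 9 comparisons, up to 10 members with the largest rise and up to 10 with the largest fall among those with an adjusted p under 0.05 and a mean of at least 1 CPM. To these were added 20 preset members, the 5 with the highest mean FPKM and the 5 with the widest range of group means. Alternatives were DESeq2 1.42.0 and its size factors, scaling by total counts, other count filters, only the groups compared, the replicate letter as a block, each library left out, and limma 3.58.1 on log2 FPKM. Transcript length and GC offsets, and leaving out the 2 unlettered libraries, were chosen after seeing the data.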

Additional observations from a re-analysis of the deposited data

Results flagged for a closer look

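Gga3 values differed between treated and untreated cells in opposite directions with 2 of the vectors. They lay at 2 levels, with 8 libraries at the lower and 10 at the higher, and untreated Col1a1-miR-29b libraries stood at both. The empty-vector call was lost whichever library was left out. All 3 treated libraries were above the untreated ones in empty-vector cells and below them in CMV-miR-29b cells. The difference between the responses was -1.31 on the log2 scale (standard error 0.21, edgeR adjusted p = 0.113), which did not pass the threshold. Over the 21 alternatives of this value the edgeR and DESeq2 adjusted p ran from 1.08e-05 (DESeq2) to 0.422 (edgeR with the replicate block), and 2 of them passed, DESeq2 and the edgeR fit of the groups compared alone (0.000149). The overlap with Mrps7 was not tested as a source of the difference.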

How the results depend on the processing

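The number of lysosome genes called is given here under edgeR and DESeq2 settings that moved it by over 1.5 times, and then under limma; the cause was not tested. Fitting only the groups compared gave 3, 2 and 3 for TGF-β in empty-vector, Col1a1-miR-29b and CMV-miR-29b cells, 5 and 5 for Col1a1-miR-29b against the empty vector without and with TGF-β, 1 for CMV-miR-29b against the empty vector without TGF-β, 0 and 1 for CMV-miR-29b against Col1a1-miR-29b, and 1 for the CMV-miR-29b difference in response (edgeR). Over all genes this fit gave 423 and 195, 523 and 196, and 361 and 166 for TGF-β with the 3 vectors, the higher first. For Col1a1-miR-29b against the empty vector it gave 318 and 464, and 315 and 757. Between the miR-29b vectors it gave 11 and 7, and 20 and 28. Keeping genes with at least 1 count gave 2 (Col1a1-miR-29b) and 6 (CMV-miR-29b) members for TGF-β. It gave 7 members for Col1a1-miR-29b without TGF-β, and 0 and 3 between the miR-29b vectors. Over all genes these were 505 and 232, 539 and 317, 329 and 592, 123 and 79, and 101 and 79. Requiring 10 counts gave 4 members between the miR-29b vectors without TGF-β, beside 328 and 235 genes. DESeq2 size factors gave 1 member there, beside 241 and 169 genes. DESeq2 gave 21 members for TGF-β in CMV-miR-29b cells, and 1 and 2 for CMV-miR-29b against the empty vector. It gave 8 and 11 members between the miR-29b vectors and 2 for the CMV-miR-29b difference in response. Over all genes these were 867 and 629, 20 and 23, 144 and 130, 720 and 478, 599 and 530, and 9 and 10. Length and GC offsets, chosen after seeing the data, gave 18 members for TGF-β in CMV-miR-29b cells, beside 652 and 562 genes. Leaving out the 2 unlettered libraries, also chosen afterwards, gave 2 members for TGF-β in Col1a1-miR-29b cells. It gave 1 and 11 members for Col1a1-miR-29b against the empty vector. Between the miR-29b vectors it gave 1 and 0 members, and 1 for the Col1a1-miR-29b difference in response. Over all genes these were 320 and 133, 158 and 239, 591 and 1068, 41 and 38, 12 and 27, and 3 and 0. Leaving out 1 library at a time gave 5 to 14, 1 to 4 and 4 to 10 for TGF-β with the 3 vectors, 0 to 8 and 7 to 20 for Col1a1-miR-29b against the empty vector, 0 to 1 and 0 to 0 for CMV-miR-29b against it, 0 to 2 and 0 to 1 between the miR-29b vectors, and 0 to 1 and 0 to 0 for the differences in response. For the same comparisons in that order, limma on log2(FPKM + 1), planned for the medians and not for these counts, gave 8, 2, 7, 4, 19, 0, 0, 1, 2, 1 and 0 over the genes of the filter, and 6, 1, 5, 1, 7, 0, 0, 1, 0, 1 and 0 over all genes. Of 59 named changes, 8 passed in all 15 alternatives (Ap3b2 and Cltb with TGF-β in empty-vector cells, Gga3 and Cltb in CMV-miR-29b cells, and Cltb, Igf2r, Ap3b1 and Cltc in treated Col1a1-miR-29b cells), 51 lost the threshold in at least 1, and 0 reversed. Of 66 alternative medians over the members, 26 moved by more than the pooled SD between replicate libraries, 0.0189 on the log2 scale, which was computed after seeing the data. Total-count scaling moved 7 of its 11, to -0.07, -0.03, 0.06, 0.10, 0.05, -0.05 and 0.04 for TGF-β in empty-vector and Col1a1-miR-29b cells, Col1a1-miR-29b against the empty vector without and with TGF-β, CMV-miR-29b against it with TGF-β, the miR-29b vectors without TGF-β, and the CMV-miR-29b difference in response, and limma moved the other 19.

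The replicate block needs the 16 lettered libraries. With it the member counts were 1 for TGF-β in Col1a1-miR-29b cells, and 2 and 8 for Col1a1-miR-29b against the empty vector. They were 1 and 0 between the miR-29b vectors and 1 for the Col1a1-miR-29b difference in response. Over all genes these were 280 and 114, 63 and 98, 387 and 765, 16 and 13, 3 and 10, and 2 and 0. The block moved no other member count by over 1.5 times. Over 10020 genes the 36 pairs with the same letter had a mean correlation of 0.0088 and the 70 others -0.0045. The same-letter values ran from -0.12 to 0.15. On average no pairing by letter was seen, but these means cannot tell whether libraries of a letter were prepared together. The cause of these changes was not tested.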
